A study of Mus musculus with 3 samples.

Results

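The tall peaks of a Tet2 CLIP experiment in mouse mast cells were the peaks with a height of 20 units or more, 287 of 8196 peaks (3.5%). CLIP cross-links a protein to the RNA it touches, pulls the protein down and sequences the RNA fragments that come with it, so that fragments pile up as peaks on the genome. A height unit is the smallest step in a library's normalized heights, and the sources used here do not say how many reads it stands for. The members were therefore chosen by a measured value. Their heights are a description, and only width, gene class, position and recurrence between libraries were compared with other peaks.

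The data were 3 libraries of 1 group, described in the series' design text as biological triplicates. Bone marrow of C57BL/6 mice was grown with IL-3 at 10 ng/ml and SCF at 5 ng/ml into mast cells bearing FcεRI and c-Kit at a purity above 97.5%. The cells were irradiated with UV at 400 and then 200 mJ/cm2, and endogenous Tet2 was pulled down with an antibody from lysate treated with RNase I. Neither an input nor a control-antibody library was analysed here, so a tall peak is not shown to be higher than in total RNA. Separate animals or cultures are not named in the labels, and the spread between libraries may in part be technical. The lists held 3019, 2800 and 2377 peaks in replicates 1, 2 and 3, with summed heights of 19213, 18270 and 15431 units. Positions are those of the mouse build mm10, and gene spans came from RefSeq (GRCm38.p6) without exons. Whether a peak lies in an exon, an intron or a UTR was therefore not analysed here, nor were the peaks' own sequences. At the 18S ribosomal RNA locus and the 7SL, histone and Csf2rb2 genes, near-identical copies exist in the genome, so the assignment of their peaks to 1 copy is uncertain. Repeats and matches to several places were not examined for any tall peak. At the other loci too, a peak is therefore given to a gene by position only.

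Tet2 is a dioxygenase that oxidises 5-methylcytosine, best known from DNA, where it starts the removal of the methyl group, and it also acts on methylated cytosine in RNA. In blood cells it is known as a regulator of myeloid and mast cell differentiation. Several RNAs described here belong to abundant ribonucleoproteins: 7SL is the RNA of the signal recognition particle, which directs secreted proteins to the endoplasmic reticulum, and the RNAs of ribonuclease P and ribonuclease MRP take part in processing of transfer and ribosomal RNA.

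The tall peaks met an annotated microRNA gene at 1 place, and its mature sequence is shown because 2 of the peaks ended inside it. All 3 tall peaks of this site lay within the span of Mir6236 (chr9:110281287-110281409, 123 nt). The hairpin of Mir6236 was not among the 1005 hairpins matched in RefSeq's table. Of the 287 tall peaks, 0 overlapped those 1005, against 19 of the lower peaks (0.232% of all peaks). By mature sequence, 2 tall peaks overlapped mmu-miR-6236 (RefSeq, GRCm38.p6, chr9:110281353-110281371, plus strand, 19 nt), which lies inside the span of the non-coding gene Gm39429. Its sequence is printed first with the seed, bases 2 to 8, in capitals, and then with the bases under a tall peak in capitals.
mmu-miR-6236 with its seed: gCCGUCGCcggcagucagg
mmu-miR-6236 under the replicate 2 peak: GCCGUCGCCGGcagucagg
mmu-miR-6236 under the replicate 3 peak: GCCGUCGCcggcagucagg
The peak of replicate 2 (chr9:110281344-110281363, 73 units) covered bases 1 to 11. The peak of replicate 3 (chr9:110281332-110281360, 70 units) covered bases 1 to 8, and thus ended at the last base of the seed. The peak of replicate 1 (chr9:110281323-110281338, 81 units) lay inside the gene and stopped short of the mature sequence. The 3 peaks were thus of similar height and did not end at a common base.

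In each library a small number of peaks carried a large part of the height. The tall peaks numbered 98 of 3019 in replicate 1 (3.25%), 104 of 2800 in replicate 2 (3.71%) and 85 of 2377 in replicate 3 (3.58%). They held 27.4%, 29.1% and 31.2% of the summed height, a mean of 29.2% ± 1.91 (SD, n = 3). Their median height was 34.5, 32.5 and 36 units, and the tallest stood at 223, 217 and 223 units. A peak of 20 units was 0.104%, 0.109% and 0.130% of the summed height in replicates 1, 2 and 3. The threshold was thus strictest in replicate 3, and orders of libraries in units can differ from orders by share. With the share of replicate 1 required in every library, 302 peaks were tall. Just inside the threshold, 15 peaks stood at 20 units and 16 at 21. Those at 20 units included peaks of Ccn3, Chmp4b, Col6a2, Csf2rb2 and Fth1. Just outside it, 20 peaks stood at 19 units, among them peaks of Arap1, Arl6ip6, Atf2, Bcl7c and Col6a6, and 25 stood at 18. Median widths at 20, 21, 19 and 18 units were 18, 29, 15.5 and 29 nt, so the threshold fell within a continuous range.

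Merging peaks of all libraries that lay within 100 nt of each other gave 125 sites with at least 1 tall peak. Of these, 118 had a peak in all 3 libraries, where 14.8% of all 5579 merged sites did. A tall peak was present in every library at 71 sites (56.8%), in 2 libraries at 18 and in 1 library at 36. All 54 sites with a mean of 30 units or more and a peak in every library were tall in each of them. These counts follow in part from the choice of members, since a site enters through its highest library.

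**Figure D1:**
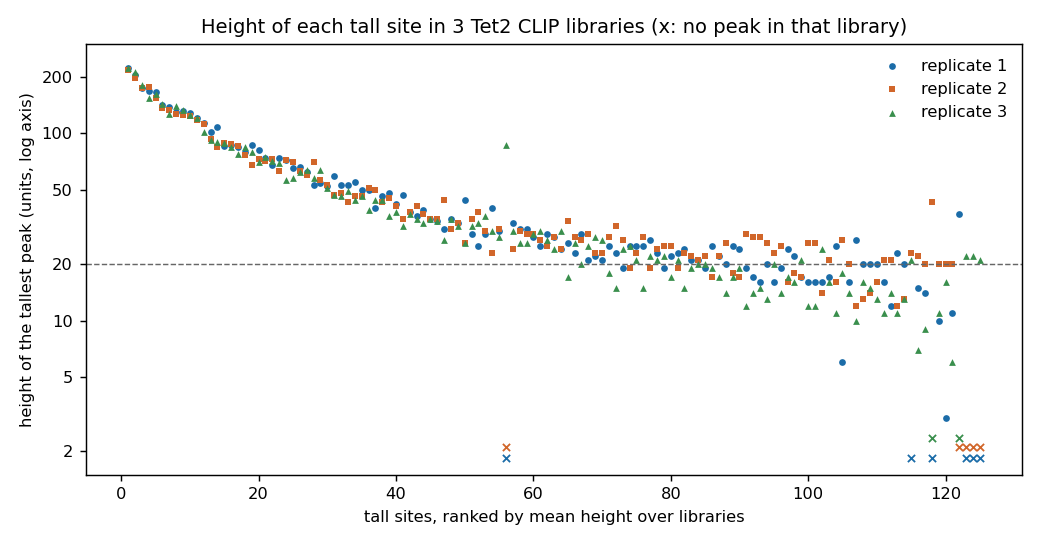
Height of the tallest peak at each of the 125 tall sites, in units on a log axis, against the rank of the site by mean height; each site has a point for each of the 3 libraries, a cross marks a library with no peak, and the dashed line is the threshold of 20 units. The points of 1 site lie close together at the top and spread apart toward the threshold, with crosses at 7 sites.

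The 2 genes for 7SL RNA held the 2 highest sites. Rn7s1, a gene for 7SL RNA, had 223, 217 and 223 units at position 69159435 of chromosome 12, in peaks 1 nt wide in all 3 libraries. Rn7s2, the other 7SL gene, had 204, 197 and 212 units at 69361340 to 69361341 of the same chromosome, with widths of 1, 2 and 2 nt. Each of these sites was the only one in its gene, so that a span of 299 nt was represented by a peak of 1 or 2 nt. Widths take the deposited starts as counted from 0, which the sources used here do not state. Counted from 1, every width would be 1 nt larger, and differences between widths would not move.

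Rpph1, the RNA subunit of ribonuclease P, had 114, 112 and 102 units at 50807568 to 50807579 of chromosome 14, with widths of 3, 4 and 3 nt. Rmrp, the RNA subunit of ribonuclease MRP, had 65, 70 and 58 units at 43492866 to 43492894 of chromosome 4. The fifth site of the small structural RNA class was the one at mmu-miR-6236, with 81, 73 and 70 units. All 5 sites were tall in all 3 libraries, and no other peak lay in these genes outside the sites. This class held 5 tall peaks in each library, or 5.26% ± 0.555 of tall peaks against 0.594% ± 0.162 of peaks under 20 units (SD, n = 3) and 0.756% of all peaks. Those peaks carried 13.1% ± 0.608 of the height of all tall peaks (SD, n = 3).

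Around the 18S ribosomal RNA locus Rn18s-rs5 on chromosome 17, all 23 peaks within 5000 nt were tall. Within the annotated locus, 3 sites had 142, 136 and 143 units, 129, 123 and 126 units, and 120, 118 and 121 units in replicates 1, 2 and 3. The widths at these 3 sites were 1 to 3 nt. A site 276 nt from the locus had 169, 176 and 154 units, again in peaks 1 nt wide.

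Further out on the same side, the site at 1125 nt had 53, 48 and 46 units, the site at 2660 nt had 108, 84 and 90 units, and the site at 3220 nt had 36, 41 and 35 units. These sites recurred in all libraries at similar height. A site at 1903 nt had 87 units in replicate 3 and no peak in replicates 1 and 2, although neighbouring peaks of 108 and 48 units lay 757 and 741 nt away there. On the other side of the locus, in the span of the long non-coding gene AY036118, replicate 2 alone had a peak of 43 units. The cluster therefore held stable and unshared peaks side by side. Igk, the immunoglobulin kappa light chain locus, which B cells rearrange, had 167, 155 and 163 units at position 69516479 of chromosome 6, 1 nt wide in each library. The Igk span is 3171119 nt long, and the peak was given to it by position only.

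Among protein-coding genes, the tallest sites were single narrow positions in long spans. Zc3h7a, a CCCH zinc finger protein, had 139, 133 and 127 units on chromosome 16 (11144120 to 11144128), in peaks 2 nt wide in all 3 libraries. The overlapping spans of Cmss1 and Filip1l, also on chromosome 16, had 130, 127 and 140 units at 57391485 to 57391521, which cannot be credited to either gene. Jarid2, a cofactor of Polycomb repressive complex 2, had 131, 126 and 133 units at 44869620 to 44869631 of chromosome 13, with widths of 6, 3 and 1 nt. That site held 97.0%, 95.5% and 97.1% of the summed height of Jarid2, whose other peaks stood at 3 or 4 units.

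Cdk8, the kinase of the Mediator complex, had 86, 89 and 89 units, and Snrnp70, a protein of the U1 small nuclear ribonucleoprotein that defines splice sites, had 87, 88 and 84 units. In both genes the 3 libraries lay within 5 units of each other. Basp1, a membrane-bound signalling protein, had 72, 72 and 56 units, with replicate 3 the lowest. Camk2d, a calcium-dependent kinase, had 54, 56 and 64 units.

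Col5a1, which encodes a chain of the fibrillar collagen V, had more tall sites than any other gene: 6 sites and 18 tall peaks on chromosome 2. In the order of replicates 1, 2 and 3, the site at 28007794 to 28007824 had 53, 70 and 58 units and the site at 27980502 to 27980516 had 59, 47 and 47 units. The site at 27981037 to 27981060 had 55, 46 and 44 units, and the site at 27985049 to 27985062 had 47, 35 and 32 units. All of these heights were tall in every library. The site at 28005270 to 28005286 had 25, 38 and 33 units, and the site at 27975595 to 27975608 had 33, 24 and 30 units. In units, replicate 1 stood highest at 4 of the 6 sites and replicate 2 at the other 2. By share of a library's summed height, replicate 3 was highest at the 2 sites named last. These had 0.130%, 0.208% and 0.214%, and 0.172%, 0.131% and 0.194%. At the remaining sites the highest library was the same by share as in units. The 6 sites lay between 58.3% and 79.3% of the way along the span of 153130 nt, counted from the gene's start. Tall peaks held 87.5%, 92.9% and 88.4% of the gene's summed height, and the highest peak elsewhere in the gene reached 14, 7 and 11 units.

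Another collagen gene, Col6a2, had 3 tall sites on chromosome 10, between 76611423 and 76611986, and all were tall in replicate 2 only. They had 17, 28 and 14 units, 16, 28 and 15 units, and 11, 20 and 6 units in replicates 1, 2 and 3. Pip5k1c, a kinase that makes phosphatidylinositol bisphosphate, had 16, 26 and 12 units at each of 2 sites, and again only replicate 2 was tall. In units, the sites of these 2 genes shared their order of libraries, with replicate 2 highest and replicate 3 lowest at all 5. The order differed by share of a library's summed height. All peaks of Col6a2 together held 0.271%, 0.536% and 0.331% in replicates 1, 2 and 3, with replicate 1 lowest. Those of Pip5k1c held 0.286%, 0.411% and 0.272%, with replicate 3 lowest.

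Further genes with several tall sites were Csf2rb2, Bcl7c, Ccn3 and the long non-coding gene Gm19951. Csf2rb2, a beta chain of the interleukin-3 receptor found in mice, had 29, 27 and 20 units at 78284928 to 78284984 of chromosome 15 and 24, 17 and 19 units at 78293058 to 78293085. It also had 28 peaks outside these sites, the most of any gene with a tall peak, and the highest of them reached 16, 19 and 11 units. Bcl7c, a subunit of BAF chromatin remodelling complexes, had 21, 29 and 25 units at 1 site and 19, 27 and 24 units at the other. Its replicate 1 peak at the second site missed the threshold by 1 unit.

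Ccn3, a secreted matricellular protein, had 31, 44 and 27 units at 1 site and 14, 20 and 9 units at the other, with no further peak in the gene. Gm19951 had 50, 51 and 39 units at 1 site and 25, 16 and 11 units at the other. In units, replicate 3 was the lowest library at each site of both genes. By share of a library's summed height, the first Ccn3 site had 0.161%, 0.241% and 0.175%, with replicate 1 lowest. Arap1, a GTPase-activating protein, had 4 tall peaks at a single site, where replicates 1 and 2 each held a pair.

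Long non-coding RNA genes had 11 tall sites, of which 6 were tall in every library. Gm36876 on chromosome 11 had 175, 174 and 182 units in peaks of 2, 2 and 1 nt, whose midpoints lay up to 84.5 nt apart between libraries. Gm34295 had 87, 68 and 79 units, Gm30821 had 53, 43 and 49 units, and D130009I18Rik had 52, 53 and 51 units. These 4 genes had no other peak. Gm24105 had 40, 23 and 30 units and Gm46595 had 20, 16 and 13 units.

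Neat1, the RNA that builds nuclear paraspeckles, had 25, 28 and 15 units, and H19, an imprinted RNA that is expressed from the maternal allele, had 25, 28 and 18 units. At these 2 well-known RNAs replicate 3 fell below the threshold of 20 units, which is a larger share of the summed height there (0.130%) than in replicate 1 (0.104%). The H19 peaks did not reach the hairpin of Mir675, which H19 hosts: the gap was 148 nt in replicate 1 and 180 nt in replicate 2. At Csf2rb2, the hairpin of Mir7676-1 lay 78, 117 and 117 nt from the tall peaks of replicates 1, 2 and 3.

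The lists drawn up for this cell type and for RNA metabolism each held a few genes with a tall peak, or none. Of 27 mast cell identity genes, 17 held some peak and 1, Csf2rb2, a tall one (5.88% of the 17). It was also the only gene with a tall peak among 34 JAK-STAT and SOCS genes, 21 of which held some peak (4.76% of the 21). For comparison, 58 of the 3086 protein-coding genes with a peak held a tall one (1.88%), and 58 of all 21900 protein-coding genes (0.265%). Of 33 markers of macrophages, neutrophils, lymphoid and erythroid cells, 2 held a peak and none a tall one. A peak count depends on how much RNA a gene makes as well as on Tet2, and the 2 were not told apart here.

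Of 73 histone genes, 44 held a peak and 4 a tall one, all 4 for histone H2B, the partner of H2A in the nucleosome. H2bc9 had 44, 26 and 26 units, H2bc8 had 24, 16 and 17 units, H2bc4 had 6, 27 and 18 units, and H2bc3 had 27, 12 and 10 units. The H2B genes are near-identical, and no library was highest in all 4. Of 41 translation factors, 25 held a peak and 2 a tall one. Eif4a1, the helicase of the cap-binding complex, had 26, 34 and 17 units, and Pabpc1, the cytoplasmic poly(A)-binding protein, had 16, 20 and 14 units.

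Of 37 cytoskeleton genes, 18 held a peak and only Actb, β-actin, a tall one, at 23, 32 and 15 units. Of 49 chromatin regulators, 29 held a peak and only Jarid2 a tall one. Of 11 abundant long non-coding RNAs, 5 held a peak and 2, H19 and Neat1, a tall one. Among all long non-coding RNA genes, 12 of the 301 with a peak held a tall one (3.99%). These counts are small, and no list is called apart from the other genes by them.

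Of the 77 genes with a tall peak (0.154% of annotated genes), 46 had no peak outside their tall sites. This held for 30 of 58 protein-coding genes and 10 of 12 long non-coding RNA genes. Genes that share a site, such as Cmss1 and Filip1l, each count. How often genes without a tall peak hold a single site was not computed, so these counts set no gene group apart. Npffr2, a neuropeptide FF receptor, had 29, 30 and 36 units, and Il1rapl1, an interleukin-1 receptor accessory protein-like gene on chromosome X, had 29, 25 and 27 units, each with no other peak. Cdkn1c, an inhibitor of cyclin-dependent kinases, had 23, 24 and 21 units and Lars2, the mitochondrial leucyl-tRNA synthetase, had 22, 25 and 17 units in peaks 1 nt wide.

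Sites outside every gene span numbered 37, from 56 to 109460 nt from the nearest span, with a median of 7715 nt. Of these 37 sites, 28 were tall in every library, as were 28 of the 68 sites in protein-coding genes. The site near Rimbp3 on chromosome 16 (17222347 to 17222359, 8374 nt away) had 102, 93 and 92 units. The site on chromosome 3 that lay 109460 nt from Gm8797 had 85, 86 and 78 units, and the site 17307 nt from Gm30815 on chromosome 1 had 79, 77 and 85 units.

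Further sites of this kind lay near Gm7612 with 74, 71 and 75 units, near Gm18604 with 68, 73 and 71 units, near Gm15569 with 74, 63 and 69 units, near Gm40665 with 66, 63 and 62 units and near Gm40816 with 62, 60 and 64 units. At all of these sites the 3 libraries lay within a narrow range. The nearest gene is given as a landmark, and nothing ties the peak to it.

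The share of peaks inside gene spans was lower for tall peaks than for the rest in every library. It was 66.3%, 69.2% and 62.4% of tall peaks in replicates 1, 2 and 3, against 91.7%, 92.5% and 92.0% of peaks under 20 units (91.2% of all peaks). The difference averaged -26.1 ± 3.22 percentage points (SD, n = 3, lower in 3 of 3 libraries, exact sign-flip permutation test, two-sided, p = 0.25). With 3 libraries 0.25 is the smallest p this test can give, so no comparison here can pass 0.05. Of 28 comparisons made in this way, 27 gave that value, and Benjamini-Hochberg adjustment makes none smaller. Against peaks of 10 to 19 units, of which 86.3% ± 1.58 lay in gene spans, the difference was -20.4 ± 1.87 percentage points (SD, n = 3, lower in 3 of 3).

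Tall peaks outside spans also lay farther from them. Of 33, 32 and 32 such peaks, 63.6%, 68.8% and 62.5% were over 5000 nt from the nearest span, against 41.2%, 38.8% and 42.9% of lower peaks outside spans (44.1% of all peaks outside spans). The difference was 24.0 ± 5.35 percentage points (SD, n = 3, higher in 3 of 3, exact permutation p = 0.25). Within 500 nt of a span lay 12.4% ± 0.219 of these tall peaks and 31.3% ± 0.973 of the lower ones (SD, n = 3). Peaks in several gene spans at once numbered 4, 3 and 3 among tall peaks, or 3.50% ± 0.599, against 6.96% ± 0.427 of lower peaks (SD, n = 3) and 6.84% of all peaks.

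By gene class, protein-coding genes held 46, 54 and 38 tall peaks, which was 46.9%, 51.9% and 44.7% of tall peaks, against 88.1%, 88.5% and 88.2% of peaks under 20 units (86.8% of all peaks). The difference was -40.4 ± 3.55 percentage points (SD, n = 3, lower in 3 of 3, exact permutation p = 0.25). Positions outside gene spans took 34.0% ± 3.45 of tall peaks and 7.93% ± 0.439 of lower ones (8.85% of all). Long non-coding RNA genes took 8.64% ± 1.57 and 2.61% ± 0.126 (2.82% of all), and other loci, here the 18S locus and Igk among tall peaks, took 4.21% ± 0.444 and 0.600% ± 0.113 (0.732% of all; SD, n = 3 each). The 23 tall peaks around the 18S locus are split over other loci, positions outside gene spans and long non-coding RNA genes.

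Read the other way, 25% ± 5.22 of all peaks in small structural RNA genes were tall, as were 20.7% ± 5.14 in other loci, 13.5% ± 1.44 outside gene spans and 10.7% ± 1.78 in long non-coding RNA genes (SD, n = 3). In protein-coding genes the share was 1.94% ± 0.243. Protein-coding genes held 34.98%, 38.2% and 32.8% of the height of tall peaks in replicates 1, 2 and 3, and positions outside spans 30.9%, 29.6% and 33.002%. Protein-coding genes held more in 2 of the 3 libraries.

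**Figure D2:**
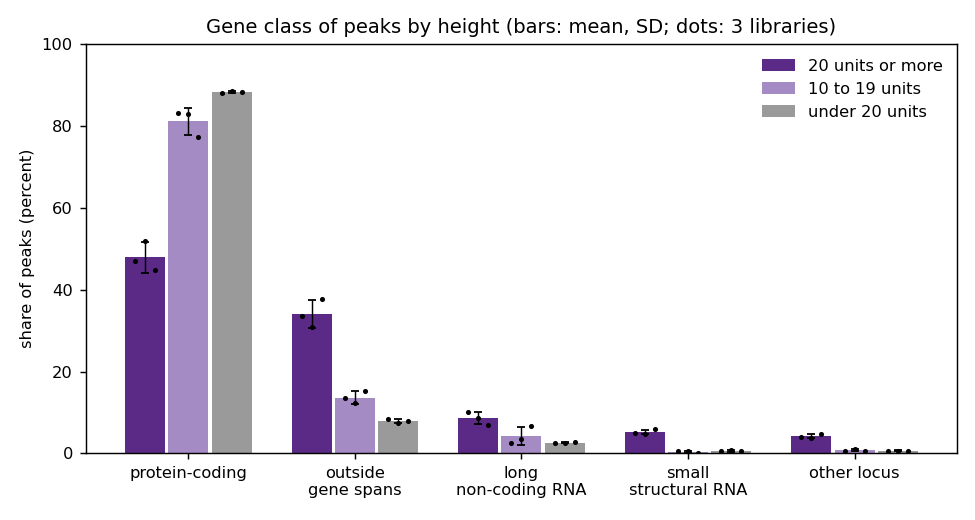
Share of peaks in percent by gene class, for peaks of 20 units or more, of 10 to 19 units and of all heights under 20 units; bars are means of 3 libraries with SD, and dots are the libraries. Tall peaks have 47.9% in protein-coding genes and 34.0% outside gene spans, and lower peaks 88.3% and 7.93%.

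The mix changed within the tall peaks as well. The share in protein-coding genes was 70.3% of the 118 peaks of 20 to 29 units, 40% of the 70 peaks of 30 to 49 units, 29.5% of the 61 peaks of 50 to 99 units and 23.7% of the 38 peaks of 100 units or more. The share outside gene spans was 23.7%, 51.4%, 45.9% and 13.2% over the same steps, so it was highest in the middle of the range. Peaks of 1 site enter once for each library and are not independent.

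Tall peaks were narrow. Their median width was 10, 10 and 9 nt, against 54, 55 and 55 nt for peaks under 20 units. The difference averaged -45.0 ± 1.00 nt (SD, n = 3, narrower in 3 of 3, exact permutation p = 0.25). Against peaks of 10 to 19 units, with medians of 26, 28 and 29 nt, it was -18.0 ± 2.00 nt (SD, n = 3, narrower in 3 of 3). Peaks of at most 5 nt made up 36.7%, 36.5% and 35.3% of tall peaks, against 2.43%, 3.60% and 3.32% of lower peaks (4.25% of all peaks). Peaks of 1 nt numbered 16, 16 and 13 among tall peaks.

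Width fell with height within the tall peaks. The median was 18 nt at 20 to 29 units, 11 nt at 30 to 49 units, 8 nt at 50 to 99 units and 1 nt at 100 units or more, where 94.7% of peaks were at most 5 nt wide. The authors' peak caller needs a valley on both sides of a peak, and its part in the widths was not tested. Median widths of tall peaks were 3, 2 and 3 nt in small structural RNA genes, 1, 1 and 2 nt in other loci, 11, 10 and 11 nt in protein-coding genes, and 11, 12 and 12.5 nt outside gene spans.

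**Figure D3:**
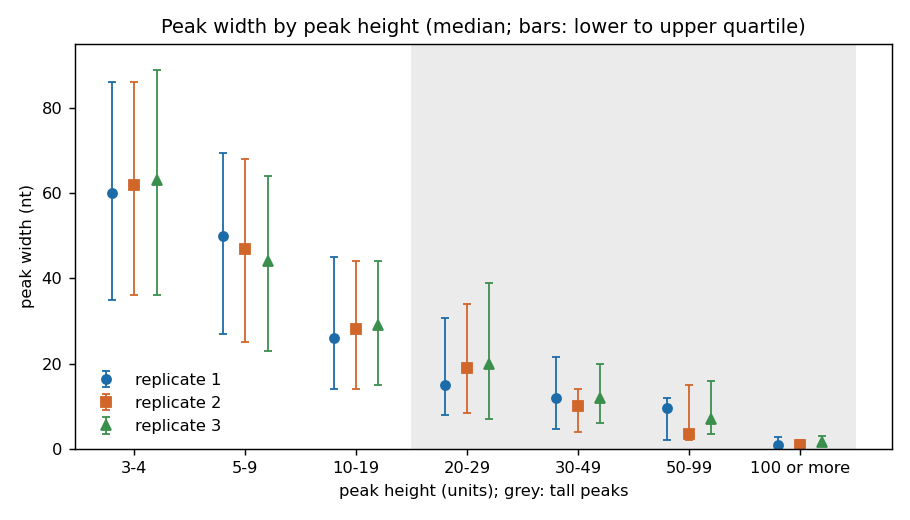
Peak width in nt by height class in units for each of 3 libraries; points are medians, bars run from the lower to the upper quartile, and the grey field marks tall peaks. Medians fall from class to class up to 100 units or more, where widths lie near 1 nt.

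The 26 tall peaks wider than 40 nt (9.06%) had a median height of 25 units, against 70.5 units for the 104 of at most 5 nt. The widest tall peak, in Pdcd6ip (also called ALIX, a protein of membrane budding), measured 141 nt with 37 units in replicate 1 and had no counterpart elsewhere. The next was the site in Zfp949, a zinc finger gene, with 21, 21 and 20 units in peaks of 90, 60 and 59 nt. Asph, an aspartate β-hydroxylase, had 24, 23 and 15 units in peaks of 59, 42 and 59 nt, and Nid1, the basement membrane protein nidogen, had 19, 22 and 20 units in peaks of 64, 62 and 47 nt.

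A site 22505 nt from Olfr369-ps1 had 39, 37 and 33 units in peaks of 2, 54 and 70 nt, so the same place gave a narrow and a wide peak. A site near Gm15569 had 28, 29 and 29 units in peaks of 68, 38 and 67 nt, a site near LOC115490388 had 31, 30 and 26 units in peaks of 44, 20 and 55 nt, and Stt3b, a subunit of the oligosaccharyltransferase, had 16, 21 and 11 units in peaks of 64, 53 and 61 nt. Of the 287 tall peaks, 26 (9.06%) were wider than 40 nt.

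Whether a tall peak was found again depended on how a match was defined. By an overlap of at least 1 nt, 63.3%, 69.7% and 63.5% of tall peaks were found in a given other library, against 30.01%, 33.4% and 37.5% of peaks under 20 units (34.5% of all pairings). The difference was 31.9 ± 5.31 percentage points (SD, n = 3, higher in 3 of 3, exact permutation p = 0.25). Against peaks of 10 to 19 units, found in 76.4%, 72.4% and 78.0% of pairings, it was -10.1 ± 6.42 percentage points (SD, n = 3, lower in 3 of 3). Of the 7909 peaks under 20 units, 5228 stood at 3 or 4 units, close to the lowest height in the lists. Recurrence is thus tied to the height that chose the members, and the part of height was not tested.

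By a midpoint within 200 nt, 99%, 98.6% and 94.7% of tall peaks were found in a given other library, against 36.3%, 40.5% and 44.7% of lower peaks (42.2% of all pairings). Against peaks of 10 to 19 units the difference was then 3.20 ± 4.54 percentage points (SD, n = 3, higher in 2 of 3, exact permutation p = 0.5), which is within its own spread. A match in both other libraries existed for 97, 102 and 80 tall peaks (31.2% of all peaks), and none in either for 1, 1 and 4 (46.9% of all peaks).

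The gap between the definitions was widest for the narrowest peaks. Of tall peaks of at most 5 nt, 41.8% were overlapped in a given other library and 98.6% had a midpoint within 200 nt. At 6 to 20 nt the shares were 71.2% and 97.8%, at 21 to 40 nt 94.3% and 100%, and above 40 nt 88.5% and 88.5%. The last class holds the unmatched peaks of Pdcd6ip, Safb and Safb2.

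**Figure D4:**
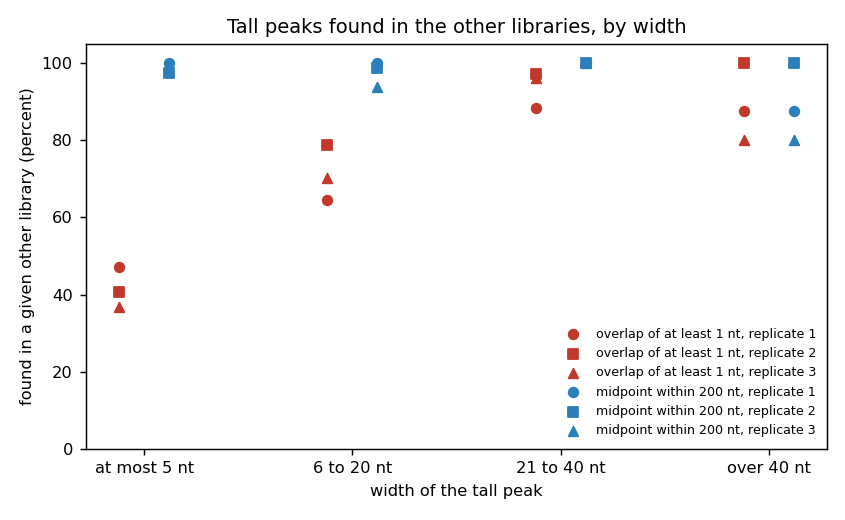
Share of tall peaks found in a given other library, in percent, by width of the tall peak and by 2 definitions of a match; each marker is 1 library. Overlap runs from 36.7% to 47.2% for peaks of at most 5 nt, while the share with a midpoint within 200 nt is at least 97.4% there.

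At the 118 sites with a peak in all 3 libraries, the tallest peaks of 2 libraries shared both ends at 7, 11 and 10 sites for replicates 1 and 2, 1 and 3, and 2 and 3. They overlapped at 81, 79 and 85 sites, and their midpoints were over 10 nt apart at 36, 48 and 37. The spread of midpoints over the 3 libraries had a median of 10.75 nt and stayed under 5 nt at 29 sites. The called peaks of the 3 libraries thus lay near each other, and their exact positions varied. The part of the peak caller in these positions was not tested. Rn7s1, Igk and the second site of Ccn3 were among the sites whose midpoint was the same in all libraries.

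Heights agreed most closely at the top. The ratio of the highest to the lowest library had a median of 1.07 at the 12 sites with a mean of 100 units or more, 1.11 at the 19 sites of 50 to 99, 1.21 at the 23 sites of 30 to 49 and 1.30 at the 37 sites of 20 to 29. Among the 34 sites with a mean under 20 units it was 1.89, but these sites were chosen by their highest library. Sites without a peak in some library have no ratio and do not enter these medians. Across the 118 sites, log2 heights of pairs of libraries correlated at Pearson r of 0.892, 0.921 and 0.929 and Spearman rho of 0.849, 0.915 and 0.875. These are descriptions over sites selected for height in the same libraries.

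At these sites replicate 3 stood closer to replicate 1 than in the library totals, most of all at the tallest. Summed over the 118 sites, replicates 1, 2 and 3 had 5540, 5496 and 5186 units. Replicate 3 thus had 0.936 of the units of replicate 1 at these sites, while its total over all peaks was 0.803 of that of replicate 1. At the 12 tallest sites, with means of 100 units or more, the same ratio was 0.991. It was 0.949 at means of 50 to 99 units, 0.905 at 30 to 49, 0.896 at 20 to 29 and 0.821 below 20. The sources used here do not give how units were set.

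Among sites with a peak in every library, the largest ratios between libraries were found near the threshold. Sites without a peak in some library have no ratio and are given further below. A site enters through its highest library, which favours large ratios at low means. Fth1, the ferritin heavy chain, had 3, 20 and 16 units, a ratio of 6.67, in peaks of 138, 9 and 20 nt. Por, the cytochrome P450 reductase, had 15, 22 and 7 units. A site 5251 nt from Gxylt1 had 19, 29 and 12 units. Replicate 2 was the highest library at 8 of the 10 sites with the largest ratios, which also include sites of H2bc4, H2bc3, Col6a2, Gm19951, Ccn3 and Pip5k1c given above.

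At 7 sites at least 1 library had no peak. Besides the pair beside the 18S locus and Pdcd6ip, Rps6ka5, a stress-activated kinase, had 23 and 21 units in replicates 2 and 3 and no peak in replicate 1, where the nearest peak was 759177 nt away. Bin2, a protein of membrane curvature in blood cells, had 22 units in replicate 3 only, as had Safb2. Safb, which like Safb2 encodes a scaffold attachment factor, had 21 units in replicate 3 only. The nearest peak of replicate 2 lay 8553 nt from the Safb2 peak and stood at 5 units. Of these 7 sites, 6 rest on a single library.

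Inside protein-coding genes, tall peaks lay near the annotated start less often than lower peaks did. RefSeq's table gave start windows, from 250 nt before to 50 nt after a start, for 17492 of 21900 protein-coding genes, and 39, 43 and 34 tall peaks lay in such genes. Of these 116 tall peaks, 0 overlapped a window, against 501 of 5770 lower peaks in such genes (8.51% of all peaks in them). Across peaks of every class, 0 of the 287 tall peaks overlapped a window, against 607 of the lower peaks (7.41% of all peaks). The 116 peaks came from 55 sites, 6 of them in Col5a1. Sites are not replicates, so the 0 sets no limit on the share. Overlap is easier for a wide peak, and the part of width in this was not tested.

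By midpoints, which do not depend on width in that way, 23.1%, 23.3% and 14.7% of these tall peaks lay within 500 nt of a start, against 33.6%, 34.4% and 36.0% of lower peaks in such genes (34.3% of all). The difference was -14.3 ± 6.08 percentage points (SD, n = 3, lower in 3 of 3, exact permutation p = 0.25). Against peaks of 10 to 19 units, of which 44% ± 2.403 lay so close, it was -23.6 ± 2.64 percentage points (SD, n = 3, lower in 3 of 3). The tall peak nearest to a start had its midpoint 104 nt from it.

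Among long protein-coding spans (at least 10000 nt, strand known), 29, 36 and 30 tall peaks could be placed. The first 10% of the span held 10.3%, 19.4% and 16.7% of them, against 35.2%, 34.1% and 36.4% of lower peaks (34.8% of all). The middle held 75.9%, 69.4% and 76.7%, against 50.7%, 50.9% and 50.7% (51.2% of all), a difference of 23.3 ± 4.08 percentage points (SD, n = 3, higher in 3 of 3, exact permutation p = 0.25). The last 10% held 10.5% ± 3.60 of tall peaks and 14% ± 1.06 of lower peaks (SD, n = 3; 14% of all). Without Col5a1, whose 6 sites all lay in the middle, the middle held 67.9% ± 4.01 of tall peaks and 50.6% ± 0.154 of lower ones (SD, n = 3).

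**Figure D5:**
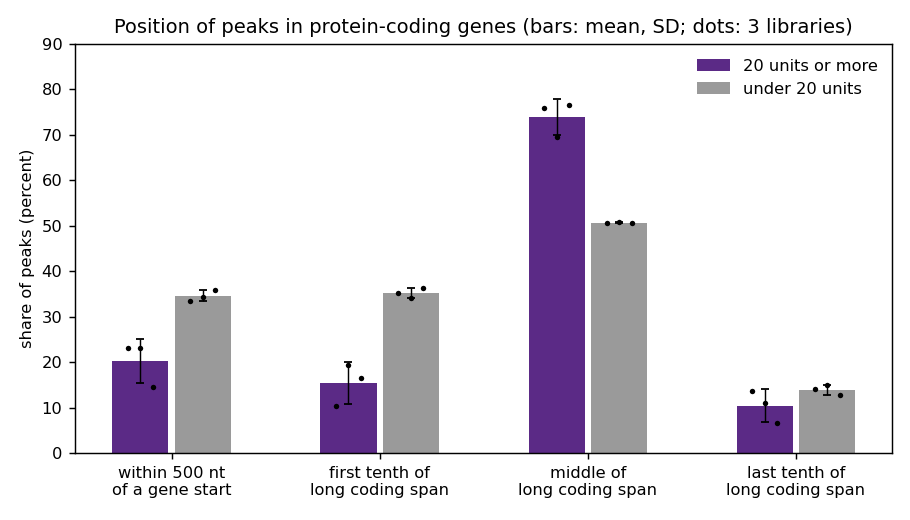
Share of peaks in percent for tall peaks and for peaks under 20 units: within 500 nt of a gene start (peaks in protein-coding genes with a start window), and in the first 10%, the middle and the last 10% of protein-coding spans that reach 10000 nt; bars are means of 3 libraries with SD, dots are libraries. Tall peaks have 20.3% within 500 nt of a start and 74.0% in the middle of the span, and lower peaks 34.7% and 50.7%.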

How the data were processed

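Tet2 CLIP was measured in 3 libraries of 1 group. Per the submitters' processing notes, cutadapt 1.9, STAR 2.4.0i and the build mm10 were used. A valley-seeking algorithm called the peaks, per the labels' protocols. Its version and settings were not given in any source used here. The authors deposited each peak's chromosome, start and end and a normalized height, used here as a signal. Heights in each library are whole multiples of 1 over 19213, 18270 or 15431 (within 0.05 of a step), and the multiple, rounded, is the height in units. Starts were read as counted from 0, an assumption, and are printed counted from 1. No peak has an equal start and end, and 108 have an end 1 above the start. The read depth is unknown.

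A peak was given to every RefSeq span that held its midpoint (49997 spans). Classes took small structural RNA, microRNA included, before protein-coding, long non-coding and other loci. Shares and medians were compared within each library, and the 3 differences were tested by an exact sign-flip permutation test, tried first on simulated data, with Python 3.11.15, numpy 2.4.6, pandas 2.3.3 and scipy 1.17.1. The members and gene lists were chosen with earlier results of these data known. Sites were named by rule: the 20 tallest, all in small or long non-coding RNA, the 10 tallest outside spans, the 10 widest, the 10 with the largest ratio between libraries, those absent from a library, genes with several sites, those next to the threshold, and up to 4 per list. The other sites named were chosen after their values were seen. Other thresholds, match rules, merging distances and left-out libraries were tried. Some sites that the rule or the lists would name are not reported here.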

Additional observations from a re-analysis of the deposited data

How the results depend on the processing

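The number of tall peaks, 287, became 439 with a threshold of 15 units and 169 with 30, and ranged from 183 to 202 when each library in turn was left out. Their share of the height, 29.2%, became 34.0% and 23.9% at these thresholds and ranged from 28.3% to 30.2% with libraries left out. The 125 tall sites became 203 and 65 at these thresholds. Sites tall in every library numbered 71, and 40 when only overlapping peaks were merged, which splits places where narrow peaks lie apart. The difference in overlap with a given other library, 31.9 percentage points, turned to -10.1 when peaks of 10 to 19 units were the comparison, and was 56.9 with a midpoint within 200 nt. Of 49 alternative values of the differences in width, gene spans, protein-coding share, overlap and gene starts, 48 kept their direction. With each library left out in turn, the difference in width ran from -45.5 to -44.5 nt. In percentage points, that in gene spans ran from -27.5 to -24.3, that in protein-coding share from -42.3 to -38.8, that in overlap from 30.7 to 32.8 and that in nearness to a start, over all peaks, from -18.2 to -15.6. With 3 libraries no test could pass 0.05, so these settings speak of direction and size alone.

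The comparison of gene starts, the 10 to 19 unit setting of it, and the settings without Col5a1, without the ribosomal RNA cluster (a gene span difference of -24.1 percentage points) and without peaks listed out of chromosome order (286 tall peaks) were chosen after seeing the data. No paired analysis was possible because there is 1 group, apart from the comparison of tall and lower peaks within each library that every difference above uses. The depth behind a unit is unknown, and no exon, strand or control library limits what a tall peak stands for.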

Other observations

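The deposited lists run in blocks of rows sorted by chromosome, and 21 peaks stand alone between rows of another chromosome: replicate 1 has 16 of them, replicate 2 has 5 and replicate 3 has 0. They were 12 to 141 nt wide, with a median of 83 nt. They include all 5 of the peaks with 2 units, the lowest height in the lists, among them peaks in Zbed3 in replicate 1 and in Socs3, Rnf166 and Tmed10 in replicate 2. They also include 1 tall peak, that of Pdcd6ip with 37 units, which stands in row 2 of the list of replicate 1 and has no peak near it in replicates 2 and 3. The Socs3 peak stands in row 2 of the list of replicate 2. Both peaks are 141 nt wide, while the next widest tall peak measures 90 nt. The other peaks out of order had at most 4 units.

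The share of tall peaks differed between chromosomes, which was not tested, and peaks of 1 site enter once for each library. Tall peaks made up 7.60% of the 263 peaks of chromosome 12, 7.00% of the 300 peaks of chromosome 13 and 6.49% of the 524 peaks of chromosome 17 (2.20% of 501 without the ribosomal RNA cluster, a setting chosen after seeing the data), against 1.29% of the 776 peaks of chromosome 11 and 1.05% of the 287 peaks of chromosome 19. No peak of the 7 on chromosome Y was tall.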
